A study of Rattus norvegicus with 30 samples.

Results

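The mitochondrial protein-coding segment covers positions 2741 to 15416 of the mitochondrial chromosome of the rat genome build rn5, a stretch of 12676 bases that holds the protein-coding genes and tRNAs. Its members were taken by position alone, as all cytosines deposited within these bounds. In the deposited calls that set aged rats against young ones (the age set) they were 406 CpG (CG in the plots), 531 CHG and 3157 CHH sites, where H stands for any base but G. Those that split the aged rats by impairment (the impairment set) held 411 CpG, 540 CHG and 3234 CHH sites, of which 402, 526 and 3129 were also in the age set. Over both sets and the 3 contexts, the segment held 4222 of the 1263807 deposited sites. No annotation of the rn5 mitochondrial chromosome was used here, so sites are given by position and described in 13 windows of up to 1000 bases instead of by gene.

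DNA came from the medial prefrontal cortex, prelimbic and infralimbic parts, of 30 male Fischer 344 rats, and methylation was measured by whole genome bisulfite sequencing. The rats were 10 young animals of 5 to 6 months and 20 aged animals of 17 to 22 months, and the labels name no transgene or drug. By their score in a set-shifting task, which tests cognitive flexibility, 9 aged rats were impaired (AI) and 11 were unimpaired (AU), split at the mean score. The identifiers of the rats fall into 3 number series, called A, B and C here, which the study does not describe and which were treated as a possible batch: of the aged rats 11 were in series A, 8 in B and 1 in C, and of the young rats 3, 3 and 4.

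The mitochondrial genome is a small circle present in many copies per cell, and its genes encode subunits of the respiratory chain and of ATP synthase together with the rRNAs and tRNAs that translate them. Both strands are transcribed as long precursors that are cut at the tRNAs. Nuclear CpG sites are mostly methylated in brain, and neurons also carry methylation at non-CG sites in the nucleus, whereas methylation of mitochondrial DNA is debated and its reported levels are low. Bisulfite converts unmethylated cytosine to a base read as T, so the methylation ratio used below is the share of reads at a cytosine that still read as C, on a scale from 0 to 1. A cytosine that escaped conversion also reads as C and cannot be told apart from a methylated cytosine in a ratio. The read number behind a ratio is not in the deposited values beyond a minimum of 5, so the precision of a single ratio is unknown, and the number of sites with a value in a rat serves here as a sign of its depth.

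Of the 406 CpG sites of the age set, 272 (67.0%) had a value in every rat, as had 347 of the 531 CHG sites (65.3%) and 1293 of the 3157 CHH sites (41.0%). A rat had a value at between 280 and 406 CpG sites, between 360 and 531 CHG sites and between 1403 and 3157 CHH sites. The aged rats of series A had values at 394 to 406 CpG sites and those of series B at 302 to 351, so that the 8 aged rats of series B lay below the 11 of series A. Sites with a value in every rat also had higher ratios: for CpG sites their mean was 0.148, against 0.0497 for sites measured in 25 to 29 rats, and for CHH sites 0.103 against 0.0227. A rat with few measured sites therefore has a mean over a different mix of sites, and the main results on rat means are also given over the sites measured in every rat.

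CpG sites had the highest methylation ratio in the segment, CHG sites were close to them, and CHH sites were lower. The mean over the sites of a rat was 0.130 ± 0.0525 (SD, n = 30 rats) for CpG, 0.118 ± 0.0467 for CHG and 0.0714 ± 0.0378 for CHH. CpG exceeded CHG in 30 of 30 rats, by 0.0117 ± 0.00664, and CHG exceeded CHH in 30 of 30 rats, by 0.0470 ± 0.0119 (sign-flip permutation tests within rats, adjusted p = 1e-05 for each, the smallest they can give). On the numbered chromosomes of the same rats the order was far steeper, with means of 0.705 for CpG, 0.0223 for CHG and 0.0165 for CHH. The segment was thus lower than the numbered chromosomes at CpG sites in 30 of 30 rats, by 0.575 ± 0.0501, and higher in 30 of 30 rats at CHG sites, by 0.0960 ± 0.0470, and at CHH sites, by 0.0549 ± 0.0381 (p = 1e-05 for each, permutation within rats). Over sites measured in every rat the differences were -0.535, 0.115 and 0.0882, with the same p. When sites with a mean ratio above 0.1 were left out on both sides, which bounds both means, the CpG difference became 0.00200 with a permutation p of 0.671.

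The rRNA segment, which lies before the protein-coding segment on the same chromosome, had lower ratios, with means of 0.0766 for CpG, 0.0651 for CHG and 0.0491 for CHH sites. The protein-coding segment was higher in 30 of 30 rats in each context, by 0.0534 ± 0.0192, 0.0532 ± 0.0203 and 0.0222 ± 0.0110 (SD over rats, permutation p = 1e-05 for each). Over sites measured in every rat the differences were 0.0602, 0.0635 and 0.0507 (permutation p = 1e-05 for each). With sites above a mean of 0.1 left out on both sides, which bounds both means and so any difference between them, they were 0.00531 for CpG (26 of 30 rats, permutation p = 5e-05), 0.00215 for CHG (20 of 30 rats, p = 0.0151) and -0.00160 for CHH (p = 0.00243), and the median over CHH sites gave 0.00591 (p = 0.0556).

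Sites within the segment differed widely, and in much the same way in each rat. The mean ratio of a site over rats was above 0.1 at 187 CpG sites (46.1%), 214 CHG sites (40.3%) and 568 CHH sites (18.0%), while 2, 3 and 124 sites read 0 in every rat with a value. The median site stood at 0.0878 for CpG, 0.0699 for CHG and 0.0218 for CHH. Over the sites measured in every rat, Pearson's r between the profiles of any 2 rats had a median of 0.913 for CpG over 272 sites, 0.912 for CHG over 347 and 0.926 for CHH over 1293, and the lowest of the 435 pairs of rats gave 0.797, 0.785 and 0.777. These correlations are across sites of the same sequence, which are not independent points, and are given without a test.

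Most of the highest sites lay together. By the rule of the highest mean among sites measured in at least 20 rats, the CpG sites named were at 9684 (0.435 ± 0.0937, SD, n = 30), 9593 (0.416 ± 0.0749) and 9658 (0.409 ± 0.0925). The CHG sites were at 9589 (0.434 ± 0.0722, n = 30), 10081 (0.419 ± 0.229, n = 22) and 10084 (0.413 ± 0.194, n = 21). The CHH sites were at 14712 (0.545 ± 0.419, n = 20), 9680 (0.451 ± 0.0903, n = 30) and 9682 (0.448 ± 0.0893, n = 30). Of these 9 sites, 8 fell between 9589 and 10084, a stretch of 496 bases picked out after its values were seen. It held 16 CpG sites with a mean of 0.216, 16 CHG sites with a mean of 0.260 and 138 CHH sites with a mean of 0.0955, and 40 of these CHH sites were above 0.1. Not every site in it was high, since its lowest CpG site had a mean of 0.0188 and its lowest CHH site read 0. The site at 14712 is an exception of another kind and is taken up with the age comparison.

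Along the segment the level varied several-fold, and the 3 contexts had their lowest window in common. CpG ratios were lowest between 4741 and 5740, at 0.0533 ± 0.0294 (SD over 30 rats, 34 sites), and in the next window, at 0.0706 ± 0.0372, and highest between 10741 and 11740, at 0.237 ± 0.0703 (20 sites). CHG sites were lowest in the same window, at 0.0661 ± 0.0273, and reached 0.212 in the windows from 9741 to 10740 and from 10741 to 11740. CHH sites were lowest there too, at 0.0401 ± 0.0228, and highest between 12741 and 13740, at 0.148 ± 0.0718 (113 sites), where CpG sites had 0.196 ± 0.0807. The window between these peaks, from 11741 to 12740, dropped to 0.0971 for CpG, 0.113 for CHG and 0.0679 for CHH sites. The lowest and the highest CpG windows were the same in the aged rats of series A, whose means there were 0.0345 and 0.176, and in those of series B, with 0.0703 and 0.307. For CHH the lowest window within these groups was the next one, from 5741 to 6740, with 0.0240 in series A and 0.0551 in series B, close to 0.0244 and 0.0573 between 4741 and 5740.

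**Figure D1:**
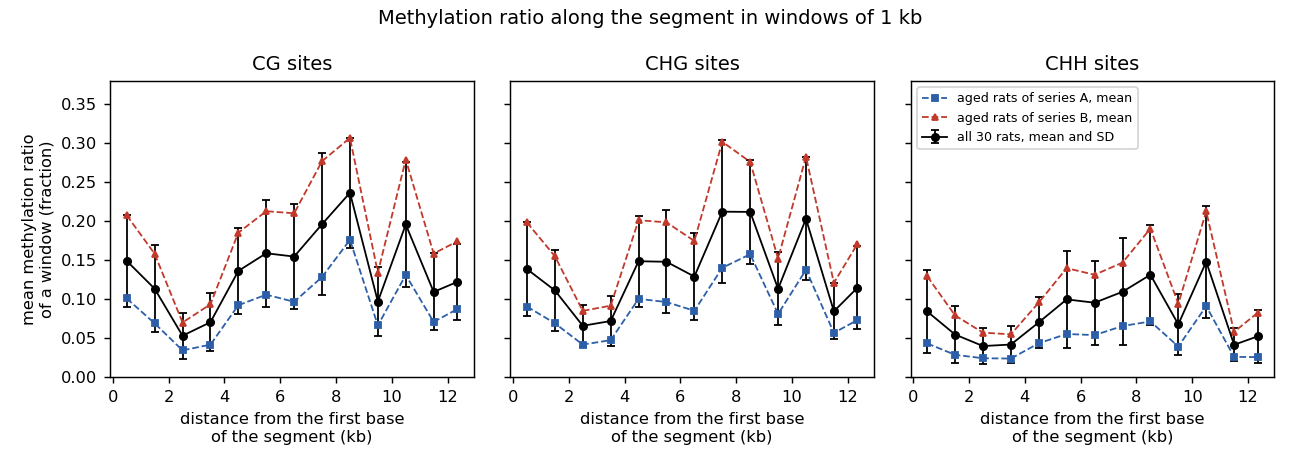
Mean methylation ratio (fraction, vertical axis) in windows of 1 kb along the segment, by distance from its first base in kb (the last window is shorter), for CpG, CHG and CHH sites. Black points and bars are the mean and SD over 30 rats, squares the mean of the 11 aged rats of series A and triangles that of the 8 aged rats of series B, which lies above series A in each window.

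The strand of a cytosine is not a column of the deposited values, but CpG sites, and among CHG sites CAG and CTG, are palindromic, so that the cytosines of a pair lie on opposite strands and can be told from their spacing. There were 178 CpG pairs and 176 CHG pairs with both cytosines deposited. The first cytosine of a pair lies on the strand in which positions are counted, and the second on the opposite strand. The second was higher: over CpG pairs the rat means were 0.050 ± 0.0280 (SD, n = 30 rats) for first and 0.150 ± 0.0450 for second cytosines, a ratio of 3.0, and over CHG pairs 0.0525 ± 0.0262 and 0.135 ± 0.0407, a ratio of 2.57. The second was higher in 30 of 30 rats in both contexts (sign-flip permutation within rats, p = 1e-05 for each) and at 143 of 178 CpG pairs (80.3%) and 145 of 176 CHG pairs (82.4%). Over the 44 CpG pairs with both values in every rat the means were 0.0228 and 0.147, and over the 41 such CHG pairs 0.0412 and 0.141.

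The difference between strands was not uniform. At the CpG pair at 10819 and 10820 the first cytosine had a mean of 0.00792 and the second 0.350, and at the pair at 9683 and 9684, which holds the highest CpG site, the means were 0.0188 and 0.404 over the 20 rats with both values. The pair at 4398 and 4399 went the other way, with 0.231 for the first and 0.0726 for the second cytosine, as did the CHG pair at 6044 and 6046, with 0.266 and 0.0688. By window, the second cytosine of CpG pairs was higher by 0.180 between 12741 and 13740 (10 of 10 pairs) and by 0.171 between 7741 and 8740 (14 of 14 pairs), while between 6741 and 7740 the difference was -0.00134 over 8 pairs. The strands were not measured equally. The second cytosine had a value in every rat at all 178 CpG and 176 CHG pairs, the first at 44 and 41. In series A the first cytosine of a CpG pair was measured at a median of 175 of 178 pairs per rat, in series C at 124 and in series B at 98. The missing values of a rat with few sites thus fell mainly on the strand with the lower ratios, and the part of this in the rat means was not tested beyond the sites measured in every rat.

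**Figure D2:**
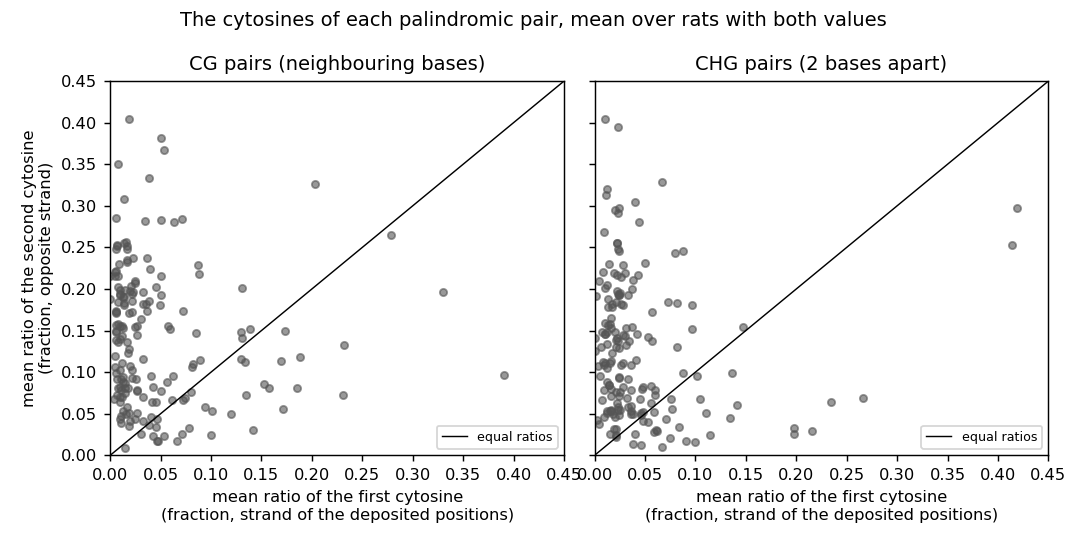
Mean ratio of the second cytosine (fraction, vertical axis) against that of the first (fraction, horizontal axis) for 178 CpG pairs and 176 CHG pairs, each point a pair averaged over the rats with both values, with the line of equal ratios. Most points lie above the line, 143 in the CpG panel and 145 in the CHG panel.

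Of the groupings compared, the largest difference between rats followed the number series of their identifiers and not age or impairment. Among aged rats, the CpG mean of the 11 rats of series A ran from 0.0561 (AU 3) through a median of 0.0890 to 0.105 (AI 1), and that of the 8 rats of series B from 0.128 (AI 7) through 0.173 to 0.269 (AU 8). The series did not overlap. Series B exceeded series A by 0.0882 at CpG sites (0.176 ± 0.0422 against 0.0880 ± 0.0128), by 0.0789 at CHG sites (0.159 ± 0.0353 against 0.0805 ± 0.0111) and by 0.0567 at CHH sites (0.0990 ± 0.0306 against 0.0423 ± 0.00572), and each of its 8 rats was above each rat of series A in each context (exact permutation test, p = 1.32e-05, the smallest the 75582 arrangements allow). Restricted to sites measured in all rats, the differences were 0.0825, 0.0746 and 0.0556, with the same p. The rRNA segment moved with the protein-coding segment, at 0.0972 in series B and 0.0468 in series A for CpG sites. On the numbered chromosomes the aged rats of the series were close, with CpG means of 0.705 and 0.702 (exact permutation test, p = 0.0344), and at CHH sites series B was lower, at 0.0159 against 0.0168 (exact permutation test, p = 9.26e-04).

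The young rats also differed by series. Their CpG means were 0.0804, 0.0815 and 0.117 in series A, 0.157, 0.176 and 0.263 in series B, and 0.118, 0.120, 0.132 and 0.182 in series C, where the single aged rat had 0.0960, below the 4 young rats. The difference between the series covered the whole segment, since the ratio of series B to series A in aged rats lay between 1.74 and 2.29 over the 13 CpG windows, between 1.75 and 2.33 for CHG and between 2.20 and 3.18 for CHH. It held for low and high sites, with a ratio of 2.06 in the lowest quartile of the CpG sites measured in every rat (0.0330 against 0.0160) and 1.62 in the highest (0.359 against 0.222), where 7 of 8 rats of series B were above each rat of series A. It also held on both strands, with 1.91 at first and 1.60 at second cytosines of CpG pairs, where 5 and 7 of the 8 rats of series B were above each rat of series A. Over the pairs with both values in every rat the ratios were 2.40 and 1.95. There, all 8 rats of series B were above each rat of series A on both strands. Each aged rat of series B also had fewer measured sites than each aged rat of series A, in each context. Series and number of sites therefore cannot be told apart in this comparison. Whether the series marks a date, a library batch or another group of animals is not given in the sources used here.

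**Figure D3:**
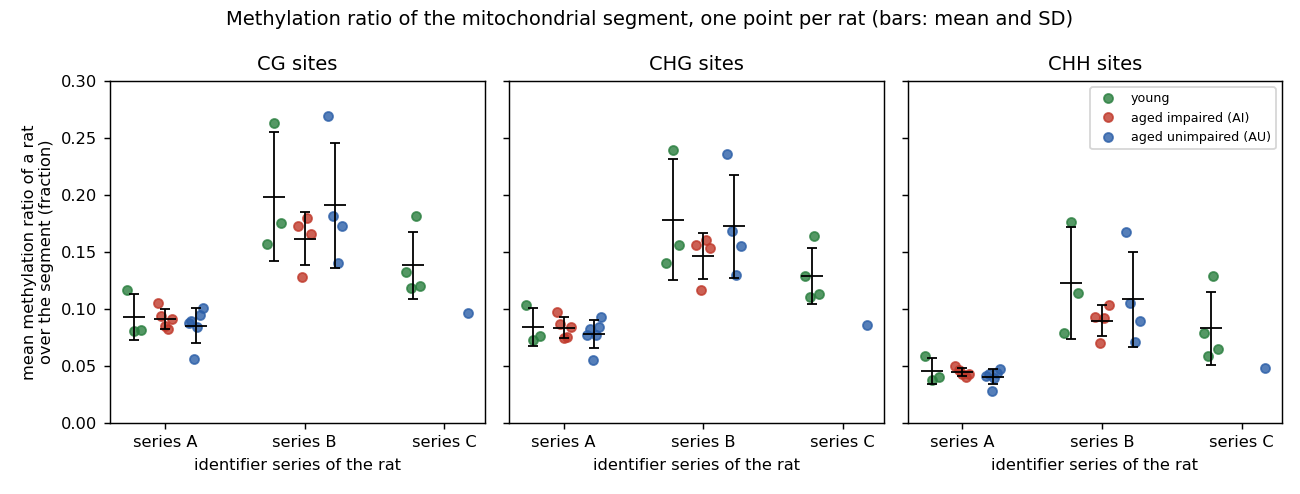
Mean methylation ratio of each rat over the segment (fraction, vertical axis) by number series (horizontal axis) for CpG, CHG and CHH sites, with young, AI and AU rats in separate columns and bars for the mean and SD of groups of 2 or more. Rats of series B lie above those of series A in each context, and young, AI and AU rats overlap within series A and within series B.

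Rats with fewer measured CHH sites had higher CHH means in series B. There, over 11 rats, the CHH mean fell with the number of CHH sites measured (Pearson's r = -0.801, permutation p = 7.2e-04, adjusted p = 0.015 over 24 relations; Spearman's rho = -0.827, adjusted p = 0.0316), and r was -0.738 without the 2 rats farthest from the median number of sites. Over the sites measured in every rat r was -0.618 with an adjusted permutation p of 0.11, so this relation did not pass. With the number of sites measured on the numbered chromosomes, a measure of depth outside the segment, the CHH mean had an r of -0.758 in series B (adjusted permutation p = 0.015). Over the sites measured in every rat this r was -0.676 with an adjusted permutation p of 0.0564, which did not pass. Within series A, over 14 rats that differ little in their number of sites, r was -0.505 (permutation p = 0.0618, adjusted p = 0.135). The relations for CpG and CHG sites did not pass after adjustment in either series.

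**Figure D4:**
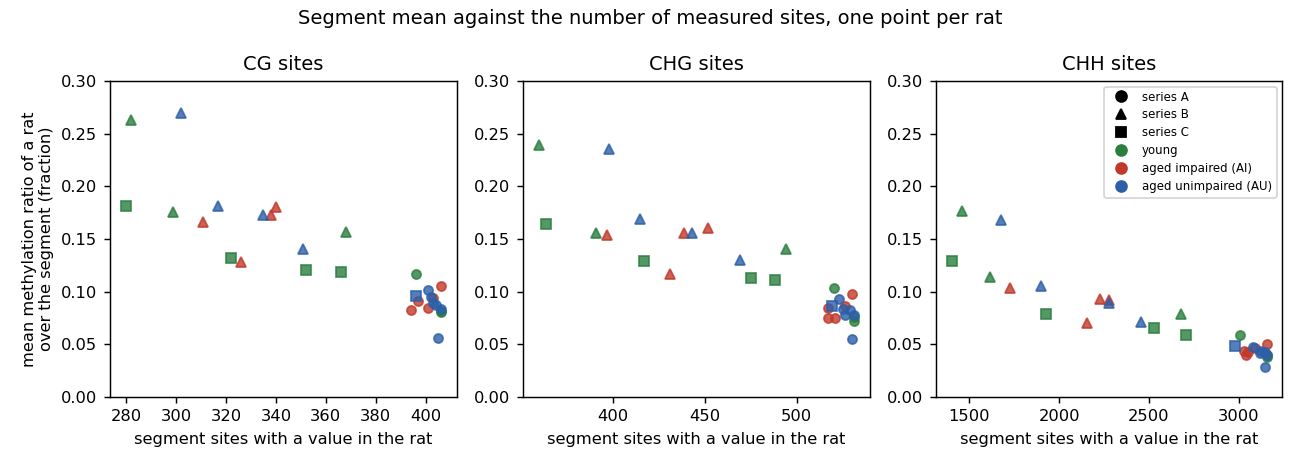
Mean methylation ratio of each rat over the segment (fraction, vertical axis) against its number of segment sites with a value (horizontal axis), for CpG, CHG and CHH sites, with the symbol for the number series and the colour for the group. Series A lies at the right with nearly all sites and low means, and the 3 rats with the highest CpG means, AU 8, young 9 and young 6, have 302, 282 and 280 CpG sites.

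No difference between aged and young rats in the mean level of the segment passed its test. At CpG sites the aged rats ran from 0.0561 through a median of 0.0986 to 0.269 and the young rats from 0.0804 through 0.126 to 0.263, so the groups overlapped almost fully. The aged mean was lower in each context, by 0.0189 at CpG sites (0.124 ± 0.0518, n = 20, against 0.143 ± 0.0545, n = 10), by 0.0180 at CHG sites (0.112 ± 0.0456 against 0.130 ± 0.0488) and by 0.0184 at CHH sites (0.0652 ± 0.0341 against 0.0836 ± 0.0437), with permutation p-values of 0.364, 0.328 and 0.215 and an adjusted p of 0.728 for each over 6 comparisons. Aged rats were mainly of series A and young rats spread over the 3 series. Over sites measured in every rat the differences were -0.0134, -0.0120 and -0.0115 (permutation p = 0.478, 0.479 and 0.384). With the series held fixed they were -0.0175, -0.0158 and -0.0164 (permutation within series, p = 0.21, 0.197 and 0.141). Within series A alone aged rats were lower by 0.00481 at CpG sites (exact permutation p = 0.588) and within series B by 0.0221 (exact permutation p = 0.594), and the test of the difference between these values did not pass (permutation p = 0.677).

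Without series B the age difference passed, at -0.0300 for CpG, -0.0288 for CHG and -0.0241 for CHH sites (exact permutation p = 0.00552, 0.00445 and 0.00327, adjusted p = 0.011 for each). That comparison sets aged rats, all but 1 of them from series A, against young rats of which 4 came from series C and 3 from series A, so age and series cannot be told apart in it. Without series A the CpG and CHG differences turned to 0.00340 and 0.00104. With the number of measured sites held fixed the differences were 0.00752, 0.00377 and 0.000393, and with series and number of sites held fixed -0.00477, -0.00608 and -0.00506, and none passed. By window, the aged mean was lower in 12 of 13 CpG windows, 13 of 13 CHG windows and 13 of 13 CHH windows, and none passed (smallest permutation p = 0.061, adjusted p = 0.993 over 78 tests). Neighbouring windows share their rats, so that these counts are not independent. With the series held fixed the smallest p was 0.016 (permutation within series, adjusted p = 0.788). It belonged to CHG sites between 4741 and 5740, with a difference of -0.0194. By strand, the age difference was -0.0129 for first and -0.0175 for second cytosines of CpG pairs (permutation p = 0.244 and 0.327). Over the pairs with both values in every rat it was -0.0111 and -0.0226 (permutation p = 0.0716 and 0.296). The strands were not tested against each other.

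Site by site, few members passed the test for age. At an unadjusted p under the threshold of 0.05, 16 of 404 CpG sites tested passed (3.96%), 9 higher and 7 lower in aged rats, against 6.19% of all CpG sites of the table, of which 2.44% were higher and 3.76% lower. For CHG, 13 of 237 sites passed (5.49%), 7 higher and 6 lower, against 8.99% of all, of which 4.78% were higher and 4.22% lower. For CHH, 57 of 669 sites passed (8.52%), 21 higher and 36 lower, against 8.83% of all, of which 5.18% were higher and 3.65% lower. Without the filter on low ratios the segment stood above the tables, with 25 of 528 CHG sites (4.73%) against 3.01% of all and 161 of 3033 CHH sites (5.31%) against 2.31%. These shares compare sites measured in unlike numbers of rats, and their difference was not tested. With the filter, 207 of the 237 CHG sites of the segment had at least 8 rats per group, against 2169 of 14542 in all. For CHH it was 581 of 669, against 4193 of 27991. Over the tested members the median difference, aged minus young, was -0.00695 at CpG, -0.0151 at CHG and -0.0215 at CHH sites, where all tested sites of the tables had -0.000947, -0.0222 and -0.0175. With Benjamini-Hochberg adjustment over all sites tested in a context, 0 CpG sites, 2 CHG sites and 5 CHH sites of the segment passed, against 0.0709%, 2.12% and 2.25% of all sites tested. By limma the counts were likewise 0, 2 and 5, against 0.0398%, 2.6% and 2.68% of all. The adjusted counts were not stable: CHG fell to 0 and CHH to 3 with at least 8 rats per group, CHH fell to 2 without a ratio filter, to 2 without series C and, with CHG at 1, to 1 without series A, and without series B they were 5 and 8. Leaving out series B raised the unadjusted counts to 78 CpG, 63 CHG and 183 CHH sites, against 6.68%, 9.65% and 9.72% of all sites, that is 19.4%, 30.9% and 31.7% of the members tested. Series A alone gave 16, 16 and 36 sites (4.05%, 8.84% and 7.58%), against 7.82%, 10.3% and 9.89%. The direction of the unadjusted calls turned with the setting, so none is read from them. At CpG sites it was 7 higher and 71 lower in aged rats without series B, 11 and 1 without series C and 0 and 13 by limma. At CHG sites it was 5 and 58 without series B, 12 and 3 without series A and 17 and 8 without the ratio filter. At CHH sites it was 14 and 169 without series B, 50 and 23 without series A, 10 and 1 without series C and 101 and 60 without the ratio filter.

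The CpG sites with the smallest p for age were at 4787, 5989 and 10819. At 5989 young rats ran from 0.0896 through 0.284 to 0.489 and aged rats from 0.0468 through 0.0978 to 0.354, with means of 0.266 ± 0.123 (n = 10) and 0.138 ± 0.0899 (n = 20). The young rats were higher by 0.128 (permutation p = 0.00306, within series p = 0.00116), the groups overlapped, and the adjusted p over all CpG sites was 0.616. At 4787 aged rats were higher, at 0.112 ± 0.0341 against 0.0848 ± 0.0131 (permutation p = 0.021, within series p = 0.148, adjusted p = 0.473). The site at 10819 is the first cytosine of the pair given above, and its means of 0.0101 in aged and 0.00361 in young rats were both near 0. Among CHG sites, 14761 came after the sites described next, with 0.170 in 12 aged rats and 0 in 3 young rats, and its exact permutation p was 0.101.

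At 4 of the 7 sites that passed after adjustment, the ratios of a group were above 0.7, and some of its rats had no value. At the CHG site at 5181 the 7 young rats with a value had 0.957 to 1, and the 20 aged rats 0 to 0.0286. At the CHH site at 7306 the 6 young rats with a value had 1 and the 20 aged rats 0.00619 to 0.123. The sites at 5181 and 7306 entered the test only through their young means. Their aged means, 0.00599 and 0.0439, were under the filter of 0.1. At the CHG site at 11421 the 4 aged rats with a value had 1, and the 10 young rats 0.165 to 0.379. At the CHH site at 14712 the 10 aged rats with a value had 0.714 to 1, and the 10 young rats 0.0866 to 0.226. No other tested site of the segment had a difference of over 0.5 between aged and young means. The same aged animals appear in the impairment set, where their values can be set beside these.

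The same aged rats had other values at some of these sites in the impairment set. At 11421 the 20 aged rats had 0.181 to 0.404 there, with a mean of 0.270, including the 4 rats at 1 in the age set, and the young rats had 0.242 in the age set. At 14712 the 11 AU rats had 0.0599 to 0.265 in the impairment set, while the 3 AI rats with a value had 0.8, 1 and 1 in both sets, and 7 AU rats with a value in both sets were lower there. At 5181 and 7306 the aged rats read alike in both sets, with means of 0.00599 and 0.00607 at 5181 and 0.0439 and 0.0450 at 7306, and the young rats are in the age set only. At the CHH sites 4947, 4953 and 5362, of which 4947 and 5362 lie outside the naming rule and were added because they passed, the aged mean in the age set was 0.183, 0.129 and 0.118, against 0.118, 0.0711 and 0.0689 in young rats. In the impairment set the same 20 aged rats had 0.145, 0.0888 and 0.0775, lower in 18, 20 and 19 of the 20 rats. The sites 4953 and 5362 entered the test only through an aged mean above 0.1, and the 3 sites were picked for a difference that a high aged value enlarges, so lower values of the same rats in the other set are partly fixed by that choice. The aged means of the impairment set thus lay between those 2 values at each of the 3 sites, and no test was made across sets, since these were called separately.

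**Figure D5:**
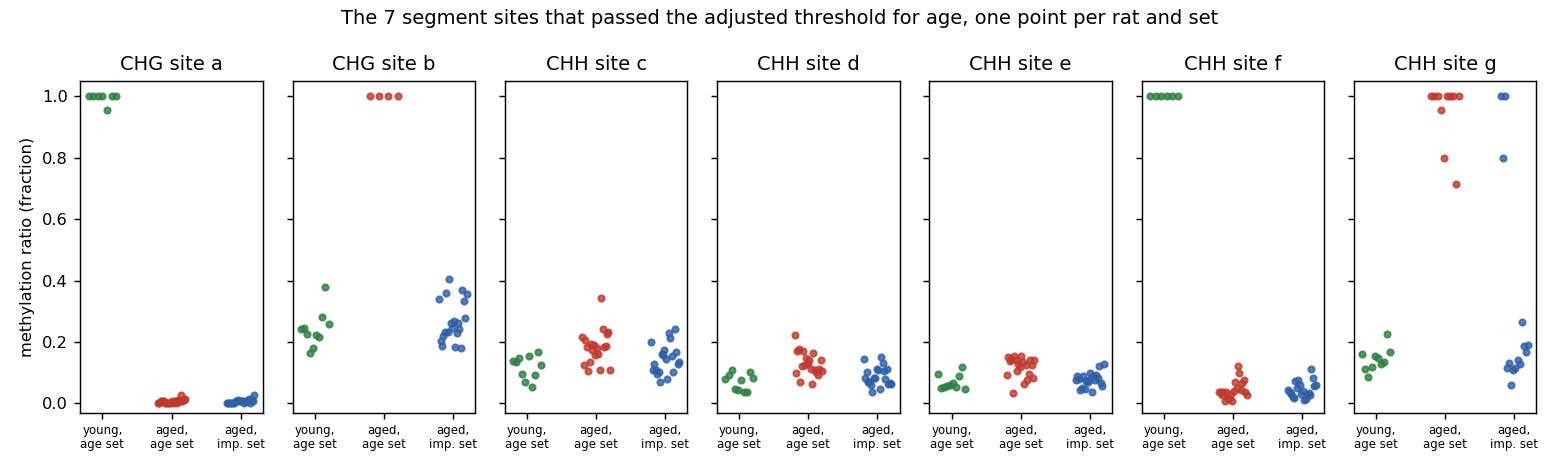
Methylation ratio (fraction, vertical axis) of each rat with a value at the 7 sites that passed after adjustment for age, for young and aged rats in the age set and the same aged rats in the impairment set (imp. set), each point a rat. Sites a and b are CHG 5181 and 11421, and sites c to g are CHH 4947, 4953, 5362, 7306 and 14712; at b and g, 4 of 4 and 7 of 10 aged rats with a value in both sets are lower in the impairment set.

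Small differences between the sets were common in the segment and large ones rare. The ratio of a rat at a site differed by more than 0.001 between the sets for 54.8% of CpG values (7410 values at 402 shared sites), 52.4% of CHG values and 30.3% of CHH values, against 0.0827%, 0.0456% and 0.0371% on the numbered chromosomes. Differences of over 0.05 were found for 4.05%, 4.11% and 2.31% of the segment values, against 0.0328%, 0.0322% and 0.0276% on the numbered chromosomes, and differences of over 0.5 for 0, 4 and 7 segment values, against 75 of 813905, 736 of 2526083 and 1775 of 6682795 values on the numbered chromosomes. The signed difference, age set minus impairment set, averaged 0.000790 over CpG, 0.00152 over CHG and 0.000148 over CHH values. The mean of a single rat over the segment could move by more and either way, as that of AI 5 at CpG sites was 0.0909 in the age set and 0.0860 in the impairment set, and that of AI 6 was 0.173 and 0.174. These rat means are over all sites of each set and not over the shared sites alone, so they also differ in the sites covered. What differed between the sets in the calling is not given in the sources used here.

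AI and AU rats had nearly the same level over the segment. At CpG sites AI rats had 0.121 ± 0.0411 and AU rats 0.124 ± 0.0617, a difference of -0.00276 (exact permutation p = 0.913). At CHG sites the means were 0.110 ± 0.0367 and 0.112 ± 0.0544 (exact permutation p = 0.924), and at CHH sites 0.0645 ± 0.0264 and 0.0656 ± 0.0420 (exact permutation p = 0.952), with an adjusted p of 0.952 for each. Over sites measured in every rat the differences were -0.000964, -0.000731 and -0.000738 (exact permutation p = 0.966, 0.971 and 0.961). Series A held 5 AI and 6 AU rats and series B 4 of each, so the groups were balanced over the series. Within series A AI rats were higher at CpG sites by 0.00472 (exact permutation p = 0.643) and within series B lower by 0.0294 (exact permutation p = 0.371), with AU 8, the rat with the highest CpG mean of all, in the latter. The difference between these effects did not pass (permutation p = 0.195 for CpG, 0.172 for CHG and 0.24 for CHH). With the series held fixed the differences were -0.00970, -0.00858 and -0.00556, and by window none of 39 tests passed (smallest permutation p = 0.657).

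With the filter on low ratios at CHG and CHH sites, a smaller share of members than of all sites passed the per-site test for impairment. For CpG, 2 of 404 sites tested passed unadjusted (0.495%), against 4.15% of all CpG sites, for CHG 1 of 215 (0.465%), against 6.25%, and for CHH 4 of 607 (0.659%), against 6.13%. No site of the segment passed after adjustment by Welch's test, where 0.0113%, 0.605% and 0.7% of all sites did. By limma 0, 0 and 1 sites passed, against 0.00989%, 0.845% and 1.01% of all. The median difference over the tested members, AI minus AU, was -0.000825, 0.000748 and 0.00186, and over all tested sites 0.000221, 0.00932 and 0.00761. The CpG sites with the smallest p, at 10492, 8039 and 14393, had group means of at most 0.0447. The CHG site at 4961 had 0.101 ± 0.0332 in AI rats, with values from 0.0512 to 0.167, and 0.145 ± 0.0550 in AU rats, with values from 0.0616 to 0.229 (exact permutation p = 0.0491, within series p = 0.0313, adjusted p = 0.738), and the groups overlapped. The CHG sites at 9164 and 10129 were higher in AI rats by 0.113 and 0.123, with values in 12 and 10 of the 20 rats (exact permutation p = 0.0758 and 0.1). The CHH sites with the smallest p were 14712, where the 3 AI rats are those described above, 9162, higher in AI rats by 0.179 over 12 rats, and 13101, lower by 0.159 over 11 rats (exact permutation p = 0.00275, 0.0227 and 0.0325, adjusted p = 0.351, 0.573 and 0.722).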

How the data were processed

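The deposited values are fractions from 0 to 1, the share of reads at a cytosine that read as methylated in a rat, made by the authors. Trimmomatic and FastQC were used for trimming and quality checks, cscall filtered unconverted bases, BSMAP aligned the reads to rn5, and cscall, part of DMAP2, gave the ratios. Tool versions are not given in the sources used here. Whether the filter removed bases or whole reads is not given there, and its effect on the ratios was not tested. How reads that also match nuclear copies of mitochondrial sequence were placed is likewise not given, and their part was not tested. A rat has a value from 5 reads on, and a site is kept with at least 3 rats per group compared, so no count model was used. The authors state average genome-wide coverage per group, but the depth per rat at the sites of the segment is unknown here. Values come in 2 sets, called separately, and all 150 columns were assigned to a rat by its identifier.

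Rat means were compared with 2-sided permutation tests, exact with under 10 rats in a group and otherwise with 100000 resamples, or with sign flips within rats, and adjusted by Benjamini-Hochberg within each family. Sites were compared with Welch's test over all sites of a table that were measured in 3 or more rats of each group, and for CHG and CHH with a mean over 0.1 in at least 1 group. The sites named are, in each context, the 3 with the highest mean among those measured in at least 20 rats, and in each comparison the 3 with the smallest p. The authors used this test for age and correlated ratios with task scores for impairment, whereas AI and AU rats are compared as groups here. With fewer than 10 rats in a group this test is approximate, so single sites also have a permutation p. The members, lists and tests were chosen with earlier results of these data known. Alternatives are given in the closing section; adjusting for the number of sites with or without series, adjusting for series over the sites measured in every rat, series A or B alone and the CpG ratio filter were chosen after seeing the data. The tests were tried on simulated data. Each rat is a separate animal. No sequence, gene or rn5 annotation of the segment was used. Software was R 4.3.3 (limma 3.58.1) and Python 3.11.15 (scipy 1.17.1, pandas 2.3.3, numpy 2.4.6; plots by matplotlib 3.10.9).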

Additional observations from a re-analysis of the deposited data

Results flagged for a closer look

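A single value was set apart in 4 of the 43 groups of 4 to 10 values examined by Dixon's test, and chance sets about 1 in 20 such groups apart. In 2 of the 4 the other values were identical, so that any departure, however small, would be set apart. AI 7 had the lowest CHG mean of the segment among the 4 AI rats of series B, 0.115, where the other rats had 0.152 to 0.160. Young 5 had 0.957 at the CHG site at 5181, where the other 6 young rats with a value had 1. Young 9, with the highest CHG mean of the young rats, had 0.599 at the CHG site at 9589, and the other 9 young rats had 0.382 to 0.486. AI 3 had 0.0417 at the CpG site at 8039, where the other AI rats with a value had 0. None of the 6 differences between series A and B in the effect of age or impairment passed its test.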

How the results depend on the processing

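The difference between series B and A in aged rats kept its sign and stayed past the threshold under each of its 9 alternatives. None of these adjusted for the number of sites measured in a rat. The age difference reversed without series A at CpG (0.00340) and CHG sites (0.00104), passed without series B (-0.0300, -0.0288 and -0.0241 for CpG, CHG and CHH), and reversed with the number of sites held fixed (0.00752, 0.00377 and 0.000393), and kept its sign without passing after adjustment under 31 others. Its size moved within these: with series and number of sites held fixed it was -0.00477, -0.00608 and -0.00506, for CHH without series A -0.00668, and the share of CpG sites above 0 had an unadjusted permutation p of 0.0286. The impairment difference reversed without series B (0.00332, 0.00341 and 0.00293), and for CHH as a share of sites above 0 (0.000335). Against the rRNA segment the CHH difference was 0.00591 by the median (not passing) and -0.00160 without sites above 0.1, and against the numbered chromosomes the CpG difference was 0.00200 without these sites. Counts of sites with an unadjusted p under 0.05 moved by over 1.5 times as follows. Each is given with its share of the members tested and the share of all sites. For age, without series B 78 CpG (19.4% against 6.68%), 63 CHG (30.9% against 9.65%) and 183 CHH sites (31.7% against 9.72%) passed, without series C 4 CHG (1.69% against 9.28%) and 11 CHH (1.66% against 8.85%), in series A alone 36 CHH (7.58% against 9.89%), in series B alone 4 CpG (1.45% against 5.60%), 3 CHG (1.26% against 6.37%) and 17 CHH (2.43% against 6.15%), without a ratio filter 25 CHG (4.73% against 3.01%) and 161 CHH (5.31% against 2.31%), over 0.2 6 CHG (4.58% against 14.1%) and 22 CHH (7.14% against 13.6%), over 0.1 9 CpG (4.37% against 6.27%), with series as a covariate in limma 26 CpG (6.40% against 6.5%) and 22 CHG (9.28% against 11.7%), and by limma on logit ratios 34 CHH (5.08% against 12.2%). The CHH share for age was also above that of all sites without series A (10.2% against 6.04%), with at least 8 rats per group (8.61% against 7.66%) and by limma with series (11.7% against 11.4%). By limma the unadjusted calls for age were 0 higher and 13 lower in aged rats at CpG, 2 and 7 at CHG and 7 and 41 at CHH sites, and with series 3 and 23, 5 and 17, and 8 and 70. Adjusted counts for age ran from 0 to 5 for CHG and from 0 to 8 for CHH over these settings. For impairment, at least 8 rats per group gave 0 CpG (against 4.38%) and 0 CHH sites (5.11%), without series A 0 CpG (3.78%) and 2 CHG (0.833% against 5.0%), without series B 11 CpG (2.73% against 4.19%), 4 CHG (2.21% against 6.43%) and 11 CHH (2.42% against 6.13%), series A alone 12 CpG (2.98% against 4.13%), 2 CHG (1.10% against 6.19%) and 9 CHH (2.0% against 5.85%), series B alone 1 CpG (0.325% against 3.68%), 4 CHG (1.62% against 5.35%) and 11 CHH (1.52% against 4.55%), no filter 5 CHG (0.940% against 1.26%) and 47 CHH (1.55% against 0.956%), a filter of 0.2 0 CHG (against 8.78%), a filter of 0.1 0 CpG (against 4.25%), limma 1 CpG (0.243% against 5.51%) and 7 CHH (1.15% against 6.79%), limma with series 2 CHG (0.930% against 8.31%) and 13 CHH (2.14% against 8.48%), and limma on logit ratios 12 CHH (1.98% against 9.16%). The cause was not tested. Depth per rat and site is unknown, so small differences at single sites were not detectable beyond the spread between rats. The age and impairment comparisons could not be paired, because their groups hold different animals and the labels give them no shared replicate numbers.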
